A study of Mus musculus with 12 samples.

Results

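The 8 genes described here are grouped as genes of retinoic acid metabolism. They include the catabolic enzyme gene Cyp26b1, the retinaldehyde dehydrogenase genes Aldh1a1, Aldh1a2 and Aldh1a3, and their relative Aldh1a7. The others are the carrier gene Rbp4, the retinol dehydrogenase gene Rdh10 and the retinaldehyde reductase gene Dhrs3. The 8 genes were taken by gene symbol, and were chosen by a measured value, the lower Cyp26b1 level of Trp/Trp F4/80+ libraries. All 8 had a row among the 15361 genes of the kidney table, and 5 of 8 had a row among the 18145 genes of the F4/80+ table. Aldh1a2, Aldh1a3 and Rbp4 had no row in the F4/80+ table used here. Those Cyp26b1 values, and every other genotype difference within F4/80+ libraries, are given as a description without a test.

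Polyadenylated RNA came from mice edited with CRISPR-Cas9 to be homozygous for a coding allele of Sh2b3, the gene of LNK, an adaptor that damps signalling from cytokine receptors. The alleles are named by the amino acid they encode, Arg for the major allele and Trp for the minor allele. The 4 groups of 3 biological replicates were whole kidney of Arg/Arg mice, whole kidney of Trp/Trp mice, F4/80+ preparations of Arg/Arg mice and F4/80+ preparations of Trp/Trp mice. All 12 libraries came from mice that had received angiotensin II for 4 weeks, which constricts vessels and raises pressure, so no group shows the level without it. Adgre1 encodes F4/80, an antigen used to sort macrophages of the mouse. The F4/80+ preparations came from separate kidneys, by a Percoll gradient and magnetic beads against F4/80. The age of the mice, their background strain and the number of edited lines were not given in the sources used here.

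Retinol travels in blood bound to the protein product of Rbp4, and inside cells it is oxidised in steps. Retinol dehydrogenases such as RDH10 make retinaldehyde, DHRS3 turns retinaldehyde back into retinol, and retinaldehyde dehydrogenases of the ALDH1A family make retinoic acid. Retinoic acid binds the nuclear receptors RAR and RXR, which act on response elements built from repeated hexamers, and enzymes of the CYP26 family hydroxylate it for removal. In the kidney, retinoic acid is known for its part in the branching of the ureteric bud during development. Macrophages and dendritic cells are known both to make it and to respond to it.

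The promoter of Cyp26b1 is shown because the account turns on that gene, and that of Cyp26a1, its sister gene and a textbook target of retinoic acid receptors, is shown for contrast. Both are RefSeq sequences on build GRCm38.p6, which is mm10, and each ends at the base before the first annotated start of the gene. Cyp26b1 lies at chr6:84593909-84594060 on the minus strand, and capitals mark a TATAAA motif 41 to 36 bases before the first start. Cyp26a1 lies at chr19:37697558-37697797 on the plus strand, and capitals mark a direct repeat with a spacing of 5 bases, read on the opposite strand as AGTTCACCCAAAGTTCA, 22 to 6 bases before the first start.
Cyp26b1: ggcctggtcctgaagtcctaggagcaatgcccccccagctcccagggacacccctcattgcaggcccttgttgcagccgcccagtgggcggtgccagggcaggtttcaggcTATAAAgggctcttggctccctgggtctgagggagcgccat
Cyp26a1: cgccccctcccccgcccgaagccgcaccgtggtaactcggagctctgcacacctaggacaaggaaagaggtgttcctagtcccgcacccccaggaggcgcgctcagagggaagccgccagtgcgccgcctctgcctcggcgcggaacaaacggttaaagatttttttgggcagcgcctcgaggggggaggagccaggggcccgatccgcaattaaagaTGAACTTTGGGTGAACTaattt
The hexamers searched were the consensus AGGTCA, its variants GGGTCA as well as AGTTCA, and lastly GGTTCA. Direct repeats of them, in any combination and on both strands, were sought in windows from 250 bases before to 50 bases after each RefSeq start. Repeats with a spacing of 1, 2 and 5 bases were in 0.222%, 0.268% and 0.0974% of 32851 windows, and TATAAA was in 13.6%. No such repeat was in the 10 windows of the 6 genes with an entry, Cyp26b1 included, which says only that these letters are not in these windows. Aldh1a3 and Rdh10 had no entry. The motif matches are a description of sequence and not of binding.

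The start of the coding sequences of Aldh1a1 and Aldh1a7 is shown because the likeness of these neighbouring genes bears on how their reads were assigned. ALDH1A7 is a rodent protein close to ALDH1A1, and whether it makes retinoic acid was not tested. The first 120 coding bases of each are from the GENCODE M21 annotation, and capitals mark the 10 bases that differ.
Aldh1a1: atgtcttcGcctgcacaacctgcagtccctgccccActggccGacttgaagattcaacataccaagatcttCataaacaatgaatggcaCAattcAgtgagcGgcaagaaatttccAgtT
Aldh1a7: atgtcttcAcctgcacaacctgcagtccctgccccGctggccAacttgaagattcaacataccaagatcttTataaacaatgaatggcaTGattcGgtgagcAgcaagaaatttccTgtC
Over the coding sequence the 2 genes were identical at 1377 of 1503 bases (91.6%), against 69.2 to 70.8% for the other pairs of Aldh1a genes. Of 2017 windows of 50 bases in the Aldh1a7 transcript, 151 (7.49%) occurred unchanged in Aldh1a1, and 1 of 1967 windows of 100 bases did. Reads from the shared stretches could be assigned to either gene, so the counts of Aldh1a1 and Aldh1a7 are uncertain to that extent.

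Libraries held 19.6 to 54.7 M (mega) counts in kidney and 35.9 to 51.6 M in F4/80+ preparations. Mitochondrially encoded genes took 7.86 to 9.35% of kidney counts and 70.1 to 83.6% of F4/80+ counts. Levels are therefore given as CPM, counts scaled to a common library size over nuclear protein-coding genes, of which 17.8 to 49.99 M counts were left per kidney library and 6.88 to 11.1 M per F4/80+ library. In summed macrophage markers, though not in every marker, the F4/80+ libraries went against their label. The 12 resident macrophage markers summed to 59.8 to 225 CPM in Arg/Arg and 202 to 352 CPM in Trp/Trp preparations. In whole kidney they summed to 289 to 342 CPM in Arg/Arg and 387 to 628 CPM in Trp/Trp mice. The sum of 12 proximal tubule markers was 19800 to 60116 CPM in F4/80+ preparations and 31989 to 38464 CPM in kidney. Adgre1, the gene of the F4/80 antigen, was at 1.26 to 16.7 CPM in F4/80+ libraries and at 4.11 to 8.32 CPM in kidney. They are called F4/80+ preparations here, and a level in them is not a macrophage level. Trp/Trp kidney replicate 1 stood apart from the other kidneys, with adipocyte markers at 282 CPM against 87.0 to 110 CPM, and markers of papilla, urothelium and mesothelium at 130 CPM against 22.7 to 33.8 CPM.

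In whole kidney Dhrs3 was the most abundant of the 8 genes, followed by Rdh10 and Aldh1a7. Per kilobase of exon, the mean level over all 6 kidneys was 71.3 ± 5.03 CPM (SD, n = 6) for Dhrs3, which returns retinaldehyde to retinol. Rdh10, which makes retinaldehyde, was at 20.9 ± 1.49 CPM per kilobase and Aldh1a7 at 20.8 ± 3.96 CPM per kilobase (SD, n = 6), with ranges that overlapped. Aldh1a1 was at 5.35 ± 1.26 and Aldh1a3 at 5.32 ± 0.54 CPM per kilobase (SD, n = 6). At the lengths used, these genes of enzymes that form retinoic acid could not be ordered either. Length was that of all annotated exons of a gene merged, 4.94 kb for Aldh1a1 and 2.07 kb for Aldh1a7. The order rests on that choice. Cyp26b1 at 2.88 ± 1.67 CPM per kilobase (SD, n = 6) had a range overlapping both of its neighbours in the order, Aldh1a3 and Aldh1a2. Aldh1a2, the main retinoic acid synthase of the embryo, was at 2.17 ± 0.53 and Rbp4 at 1.74 ± 1.35 CPM per kilobase (SD, n = 6). The other neighbours in this order, Dhrs3 with Rdh10 and Aldh1a7 with Aldh1a1, had ranges that did not overlap.

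**Figure D1:**
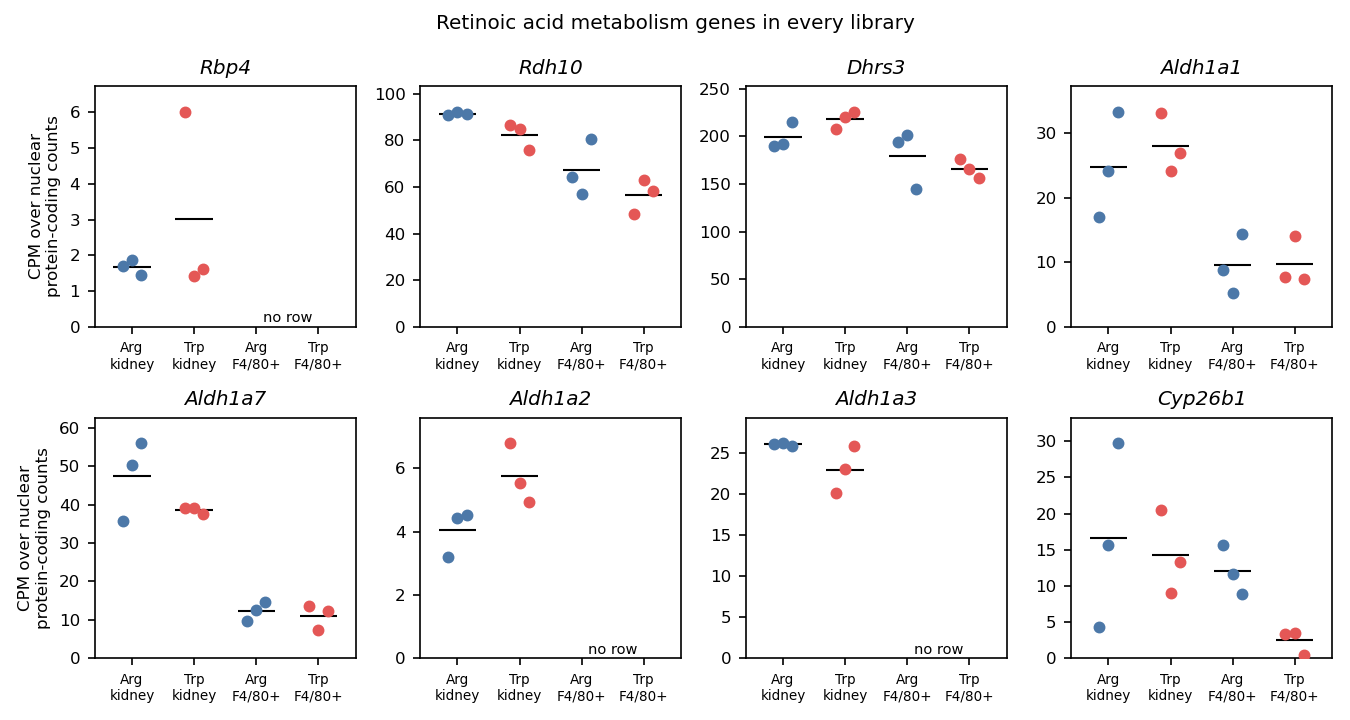
CPM over nuclear protein-coding counts (vertical axes, linear, each from 0) of the 8 genes in every library, by group. Points are libraries in replicate order, lines are group means, and "no row" marks the 3 genes without a row in the F4/80+ table. Cyp26b1 ranged from 4.37 to 29.7 CPM in Arg/Arg kidney, and its 3 Trp/Trp F4/80+ libraries lay at 0.525 to 3.52 CPM, below every other library.

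The first comparison asked how the alleles differed in whole kidney. None of the 8 passed an adjusted p of 0.05 in the edgeR quasi-likelihood test, where 0% of all 14464 genes tested did. With DESeq2 0 of 8 passed too, against 0.0977% of 15357 genes. At an unadjusted p under 0.05 in edgeR there were 3 of 8 genes, Rdh10, Aldh1a2 and Aldh1a7, against 5.71% of all genes tested. The libraries of the genotypes did not overlap for 3 of 8 genes, against 10.3% of all genes tested. Aldh1a2 had higher values in every Trp/Trp kidney, as 6.59% of all genes did, and Aldh1a3 and Rdh10 had lower ones, as 3.67% did. In whole tissue, fewer cells of a type and less RNA per cell cannot be told apart.

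The genes of retinaldehyde formation and reduction varied little between kidneys. Rdh10 was at 91.1, 92.3 and 91.2 CPM in Arg/Arg kidneys 1, 2 and 3, and at 86.7, 84.8 and 75.8 CPM in Trp/Trp kidneys 1, 2 and 3. Each Trp/Trp library lay below each Arg/Arg library, and the log2 fold change, Trp/Trp over Arg/Arg, was -0.17 ± 0.06 (SE, edgeR adjusted p = 0.8434). Dhrs3 was at 190, 192 and 215 CPM in Arg/Arg and at 208, 221 and 226 CPM in Trp/Trp kidneys, which overlapped, with a log2 fold change of 0.12 ± 0.07 (SE, edgeR adjusted p = 0.8479). Values of Rdh10, for the step to retinaldehyde, were lower in Trp/Trp kidneys and those of Dhrs3, for the reverse step, were not, but neither difference passed the test.

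The genes of the enzymes that form retinoic acid did not share a direction. Aldh1a2 was at 3.19, 4.42 and 4.52 CPM in Arg/Arg kidneys and at 6.79, 5.55 and 4.95 CPM in Trp/Trp kidneys, with a log2 fold change of 0.49 ± 0.18 (SE, edgeR adjusted p = 0.8434). The highest value was that of Trp/Trp replicate 1, where markers of fibroblasts, pericytes and smooth muscle summed to 720 CPM against 327 to 360 CPM in the other kidneys. Without that library the log2 fold change of Aldh1a2 was 0.38, and the part of those cells was not tested. Aldh1a3 was at 26.1, 26.2 and 25.9 CPM in Arg/Arg kidneys, a spread of 1.01-fold, and at 20.1, 23.0 and 25.9 CPM in Trp/Trp kidneys. Its highest Trp/Trp library, at 25.86 CPM, all but touched the lowest Arg/Arg library, at 25.93 CPM. The log2 fold change of Aldh1a3 was -0.20 ± 0.10 (SE, edgeR adjusted p = 0.8434), and -0.10 without Trp/Trp replicate 1.

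Aldh1a7 was at 35.9, 50.4 and 56.0 CPM in Arg/Arg kidneys and at 39.1, 39.1 and 37.5 CPM in Trp/Trp kidneys. Arg/Arg replicate 1 lay below all Trp/Trp libraries and the other Arg/Arg libraries above them, so the groups overlapped, and the log2 fold change was -0.32 ± 0.14 (SE, edgeR adjusted p = 0.8434). Its near copy Aldh1a1 was at 17.0, 24.1 and 33.4 CPM in Arg/Arg and at 33.1, 24.1 and 26.9 CPM in Trp/Trp kidneys, with a log2 fold change of 0.16 ± 0.21 (SE, edgeR adjusted p = 0.9329). That of Aldh1a1 was -0.05 without Arg/Arg replicate 1, so a single library set its sign.

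Rbp4, the retinol carrier, was at 1.69, 1.86 and 1.44 CPM in Arg/Arg kidneys and at 6.01, 1.42 and 1.63 CPM in Trp/Trp kidneys. The high value was confined to Trp/Trp replicate 1 among the 6 kidneys, the library with the raised adipocyte, papilla, urothelium and mesothelium markers. The log2 fold change was 0.84 ± 0.49 (SE, edgeR adjusted p = 0.8469), and -0.16 without that library. The part of those cells in the Rbp4 value was not tested.

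Cyp26b1 had the widest range of the 8 genes between Arg/Arg kidneys, while between Trp/Trp kidneys that of Rbp4 was wider, at 4.25-fold against 2.27-fold. Its level was 4.37, 15.6 and 29.7 CPM in Arg/Arg replicates 1, 2 and 3, from 137, 781 and 888 counts, a range of 6.80-fold. In Trp/Trp kidneys it was at 20.4, 8.99 and 13.3 CPM, from 707, 381 and 236 counts, inside the Arg/Arg range. The log2 fold change was -0.24 ± 0.54 (SE, edgeR adjusted p = 0.9685). Leaving out Arg/Arg replicate 3 gave 0.45, leaving out Trp/Trp replicate 2 gave 0.02, and the kidneys gave no stable direction for Cyp26b1.

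In F4/80+ preparations Cyp26b1 had low levels in all 3 Trp/Trp libraries. It was at 15.7, 11.6 and 8.90 CPM in Arg/Arg replicates 1, 2 and 3, from 108, 92 and 91 counts. In Trp/Trp replicates 1, 2 and 3 it was 3.41, 3.52 and 0.525 CPM, from 38, 30 and 4 counts. Every Trp/Trp library lay below every Arg/Arg library, and in replicate 3 the exact 95% interval of the level, which covers counting error only, was 0.143 to 1.34 CPM. The log2 fold change was -2.36, a level 5.13-fold lower. It ran from -2.73 without Trp/Trp replicate 1 to -1.92 without Trp/Trp replicate 3. Since these values chose the gene, no p-value or SE is attached to them. Whether the genotype difference is unlike that in kidney was not tested. The authors' deposited table gave a log2 fold change of -2.41 for Cyp26b1 without an adjusted p-value.

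The other 4 genes with a row showed no such separation between F4/80+ genotypes. Rdh10 was at 64.1, 57.0 and 80.4 CPM in Arg/Arg and at 48.4, 63.0 and 58.2 CPM in Trp/Trp libraries. Its log2 fold change was -0.40, and -0.20 without Arg/Arg replicate 3. Dhrs3 was at 194, 201 and 145 CPM in Arg/Arg and at 176, 166 and 157 CPM in Trp/Trp libraries. Its log2 fold change was -0.24, and -0.11 without Arg/Arg replicate 2. In both genes the groups overlapped, Dhrs3 having its lowest library in Arg/Arg.

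Aldh1a1 was at 8.87, 5.31 and 14.4 CPM in Arg/Arg and at 7.72, 14.1 and 7.35 CPM in Trp/Trp libraries. Its log2 fold change was -0.14, and 0.37 without Arg/Arg replicate 3. Aldh1a7 was at 9.74, 12.6 and 14.7 CPM in Arg/Arg and at 13.7, 7.28 and 12.3 CPM in Trp/Trp libraries. Its log2 fold change was -0.29 and ran from -0.55 to -0.02 as Trp/Trp replicate 1 or 2 was left out. The Arg/Arg and Trp/Trp libraries of both genes were interleaved. Groups did not overlap for 1 of 5 genes, Cyp26b1, against 3.33% of all 15225 genes for a lower level in Trp/Trp, 7.19% for a higher level and 10.5% for either direction. As Cyp26b1 was chosen for this difference, nothing is read from that count.

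**Figure D2:**
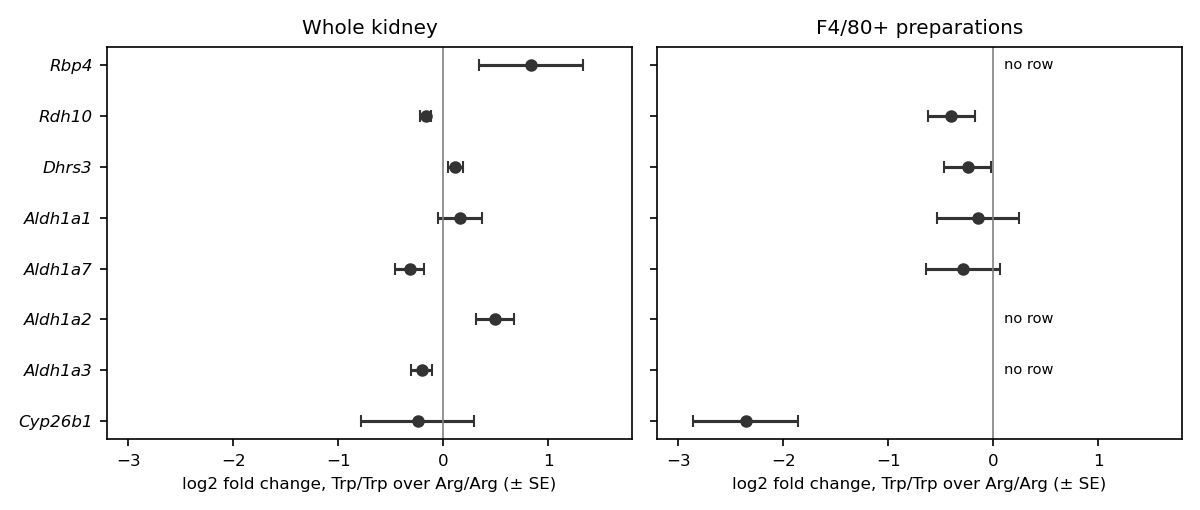
Log2 fold change of each gene, Trp/Trp over Arg/Arg (horizontal axes), in whole kidney and in F4/80+ preparations, as points with bars of 1 SE from edgeR. Cyp26b1 was at -0.24 ± 0.54 in kidney and at -2.36 in F4/80+ preparations, and the other genes lay between -0.40 and 0.84. The F4/80+ value of Cyp26b1 chose the gene. Bars restate the edgeR test, so those of F4/80+ preparations are not read.

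Cell type markers differed between the same F4/80+ groups. All 12 proximal tubule markers had a negative log2 fold change, with a median of -0.97, and their sum was 30387 to 60116 CPM in Arg/Arg and 19800 to 35353 CPM in Trp/Trp libraries. All 12 resident macrophage markers had a positive one, with a median of 1.33, and their sum was 59.8 to 225 CPM in Arg/Arg and 202 to 352 CPM in Trp/Trp libraries. Distal nephron and collecting duct markers also had positive values in 12 of 12 genes, with sums of 5734 to 14538 and 12160 to 20714 CPM. Podocyte markers were positive in 3 of 6 genes and summed to 153 to 268 and 173 to 313 CPM. Fibroblast, pericyte and smooth muscle markers were positive in 8 of 8 genes fitted, with a median of 0.67. Their sums were 97.5 to 273 and 248 to 368 CPM. Endothelial markers were positive in 4 of 8 genes and summed to 215 to 272 and 177 to 340 CPM. No papilla, urothelium or mesothelium marker had a row, and no proximal tubule or resident macrophage marker was at 0 in any library. The part of any of these cells in the level of Cyp26b1 was not tested.

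**Figure D3:**
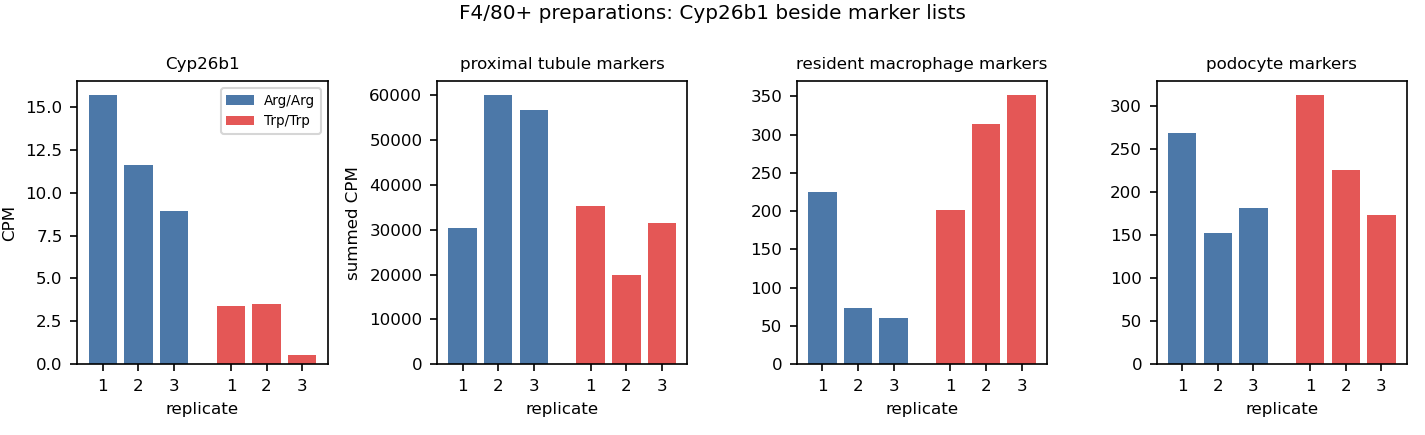
Cyp26b1 (CPM, first panel) and the summed CPM of 12 proximal tubule, 12 resident macrophage and 6 podocyte markers in the 6 F4/80+ libraries, by replicate, with every axis starting at 0. Cyp26b1 was at 8.90 to 15.7 CPM in Arg/Arg and 0.525 to 3.52 CPM in Trp/Trp libraries, while the ranges of the proximal sums, 30387 to 60116 and 19800 to 35353 CPM, overlapped, as did those of the other marker sums.

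The genes whose log2 CPM was most like that of Cyp26b1 over the 6 F4/80+ libraries, among 10480 named protein-coding genes with a mean of at least 5 CPM, were Wdfy2, Dock9, Itga7, Plbd1 and Ankrd26. Pearson's r was 0.9883, 0.9867, 0.9721, 0.9627 and 0.9592 in that order. These are the highest of many correlations over 6 libraries that share genotype and marker content, and they are given as a description. Their own range was far narrower, since Dock9 was at 103 to 109 CPM in Arg/Arg and 70.0 to 91.4 CPM in Trp/Trp libraries. In the 6 kidneys r with Cyp26b1 was -0.65 for Wdfy2, -0.96 for Dock9, 0.52 for Itga7, 0.04 for Plbd1 and -0.45 for Ankrd26, so the likeness was not shared by the kidneys.

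The remaining comparison set F4/80+ preparations against whole kidney, over both genotypes, for genes held by both tables. Sample type cannot be told apart from cell isolation, library and the processing of separate tables. Of the 4 genes tested besides Cyp26b1, 3 were lower in F4/80+ preparations in edgeR, namely Aldh1a7, Aldh1a1 and Rdh10, against 32% of 13578 genes called lower and 64.3% called in either direction. DESeq2 called the same 3 genes, against 66.8% of its genes in either direction. For 2 of the 4, Aldh1a1 and Aldh1a7, no F4/80+ library reached the lowest kidney, against 27% of all genes lower in this way, 15.2% higher and 42.2% either way. At an unadjusted p under 0.05 edgeR also gave 3 of 4, against 67.8% of all genes.

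Aldh1a7 fell from 43.0 ± 8.18 CPM in kidney to 11.7 ± 2.74 CPM in F4/80+ preparations (SD, n = 6). Its log2 difference, F4/80+ over kidney, was -1.72 ± 0.18 (SE, edgeR adjusted p = 2.579e-06) and lower in 6 of 6 libraries. Aldh1a1 fell from 26.4 ± 6.21 to 9.62 ± 3.76 CPM (SD, n = 6), with a log2 difference of -1.32 ± 0.24 (SE, edgeR adjusted p = 0.0002996). These near copies, whose transcripts share some stretches, were both lower in F4/80+ preparations. The part of reads that could be assigned to either gene was not tested.

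Rdh10 fell less, from 87.0 ± 6.18 to 61.8 ± 10.7 CPM (SD, n = 6), with a log2 difference of -0.37 ± 0.11 (SE, edgeR adjusted p = 0.008048). Within Arg/Arg libraries alone the difference of Rdh10 was -0.25 and did not pass (edgeR adjusted p = 0.1914), and within Trp/Trp libraries it was -0.49 (edgeR adjusted p = 0.01481). Dhrs3 was at 209 ± 14.7 CPM in kidney and at 173 ± 21.5 CPM in F4/80+ preparations (SD, n = 6), with a log2 difference of -0.15 ± 0.10 (SE, edgeR adjusted p = 0.2268). Scaled to total counts, which moves the median of all genes by -0.13, the difference of Dhrs3 was -0.27 and passed (edgeR adjusted p = 0.02695).

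Cyp26b1 was at 15.4 ± 8.92 CPM in kidney and at 7.28 ± 5.78 CPM in F4/80+ preparations (SD, n = 6). The log2 difference of -1.34 includes the Trp/Trp libraries that chose the gene and is given without a p-value or SE. It was -0.29 within Arg/Arg libraries, where the levels overlapped, and -2.40 within Trp/Trp libraries. The order of levels per kilobase in F4/80+ preparations was Dhrs3, Rdh10, Aldh1a7, Aldh1a1 and Cyp26b1, at 59.1 ± 7.34, 14.9 ± 2.57, 5.68 ± 1.33, 1.95 ± 0.76 and 1.36 ± 1.08 CPM per kilobase (SD, n = 6). Only the last neighbours, Aldh1a1 and Cyp26b1, had overlapping ranges there. Cell type markers differed between the sample types too. In edgeR, 8 of 12 distal nephron and collecting duct markers were higher in F4/80+ preparations and 2 lower. Of fibroblast, pericyte and smooth muscle markers, 8 of 10 were lower and 1 higher, of endothelial markers 6 of 8 were lower and 0 higher, and of podocyte markers 5 of 6 were lower and 1 higher. Of proximal tubule markers 3 of 12 were higher and 4 lower, and of resident macrophage markers 3 of 12 were higher and 6 lower. The part of cell makeup in these differences was not tested.

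**Figure D4:**
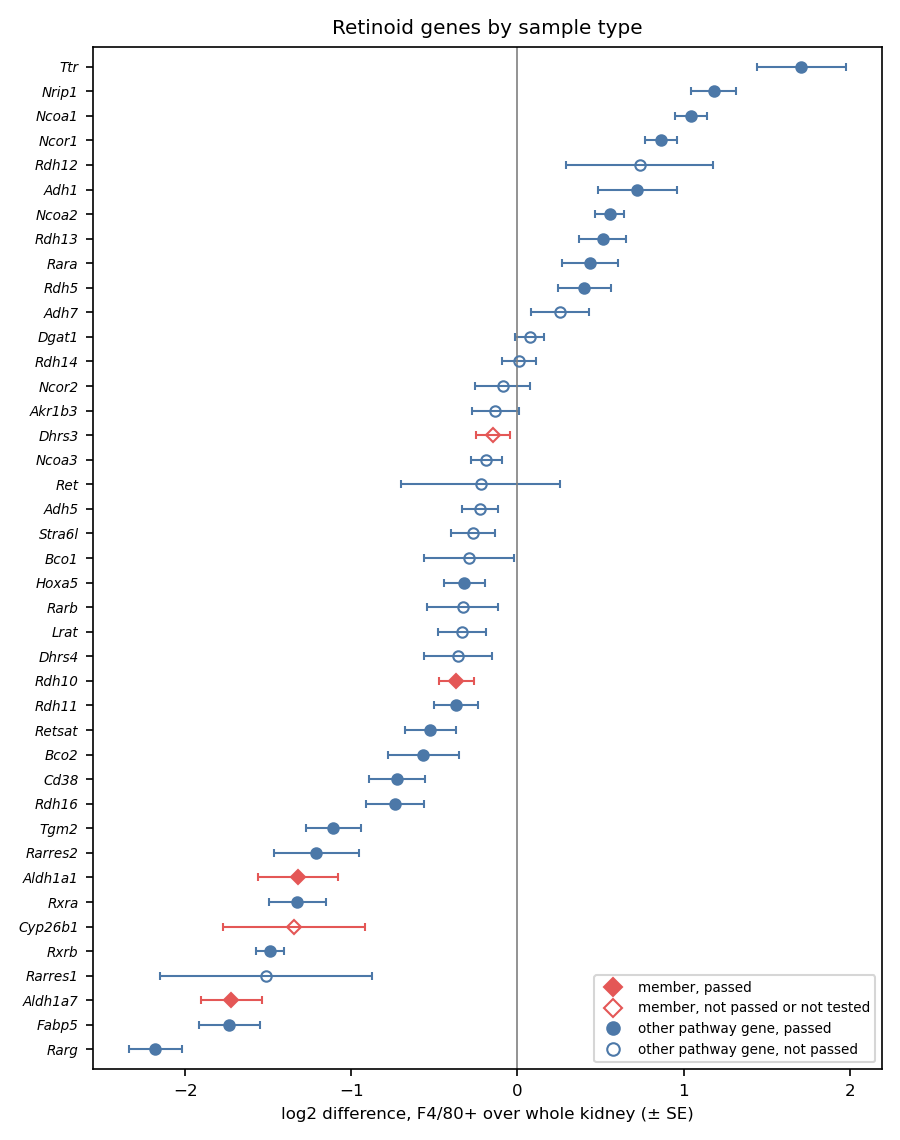
Log2 difference, F4/80+ preparations over whole kidney (horizontal axis), with bars of 1 SE, for the 5 genes described here (diamonds) and 36 other retinoid genes (circles). Filled symbols passed an edgeR adjusted p of 0.05. Cyp26b1 was not tested, so its bar is not read. Aldh1a7 at -1.72 and Aldh1a1 at -1.32 were among the lower values, and Dhrs3 at -0.15 was near 0.

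The wider pathway was followed in 53 other genes of retinol uptake and storage, retinol dehydrogenases, retinoic acid hydroxylases, receptors and cofactors, and known targets. In kidney 47 had a row and 45 were tested, and 0 passed in either direction in edgeR, with 4 of 45 at an unadjusted p under 0.05 beside 5.71% of all genes. DESeq2 also called 0. Of the 45, 24 had a positive and 21 a negative log2 fold change, with a median of 0.01 beside 0.002 for all genes tested. The genes of smallest p were Stra6l, a relative of the retinol transporter gene Stra6, at -0.27 ± 0.08 (SE), Rara, a retinoic acid receptor, at 0.24 ± 0.08 (SE), and the alcohol dehydrogenase gene Adh1 at -0.23 ± 0.09 (SE), each with an edgeR adjusted p of 0.8434. Cyp26a1, the sister of Cyp26b1, was at 0.542 to 0.850 CPM in the 6 kidneys and had no row in the F4/80+ table used here. That is below the lowest kidney value of Cyp26b1, 4.37 CPM.

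Between the F4/80+ genotypes, 35 pathway genes could be fitted, of which 12 had a positive and 23 a negative log2 fold change, with a median of -0.23 beside 0.01 for all genes. The largest, among genes with a mean of at least 1 CPM, were Rdh12, Ttr, Lrat, Bco2, Bco1 and Rdh16. Lrat, which esterifies retinol for storage, was at 9.45, 8.59 and 9.001 CPM in Arg/Arg and at 4.04, 3.76 and 4.86 CPM in Trp/Trp libraries. Its groups did not overlap, and its log2 fold change was -1.22. Rdh12, a retinaldehyde reductase gene, was at 0.872, 0.253 and 0.196 CPM in Arg/Arg and at 1.26, 3.41 and 2.89 CPM in Trp/Trp libraries, from 2 to 29 counts. Ttr, the partner of the retinol carrier in blood, had a log2 fold change of -1.53 with overlapping groups. The carotenoid-cleaving genes Bco2 and Bco1 were at -1.05 and -0.99, and the retinol dehydrogenase gene Rdh16 at -0.94. Their groups overlapped as well. All 12 proximal tubule markers had a negative log2 fold change too, as given above, whereas that of Rdh12 was positive, at 2.42. The part of those cells in these values was not tested.

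By sample type, 37 of 38 pathway genes with a row in both tables were tested, and 9 were higher and 13 lower in F4/80+ preparations in edgeR, with a median of -0.27 beside -0.007 for all genes. Within Arg/Arg libraries alone, 13 pathway genes were called, beside 6742 of 13578 genes, and within Trp/Trp libraries alone 22 were called, beside 7129 of 13578 genes. Receptor genes had the smallest p-values. Rarg was at 24.5 ± 4.85 CPM in kidney and 4.95 ± 0.90 CPM in F4/80+ preparations (SD, n = 6), with a log2 difference of -2.18 ± 0.16 (SE, edgeR adjusted p = 9.219e-08). Rxrb at -1.49 and Rxra at -1.32, whose products pair with retinoic acid receptors, were lower too. The coactivator gene Ncoa1 at 1.04 and the corepressor genes Nrip1 at 1.18 and Ncor1 at 0.86 were higher. Among genes of uptake and binding, Fabp5 at -1.73, whose product binds fatty acids and retinoic acid, was lower. Bco2 at -0.57 and the retinol saturase gene Retsat at -0.52 were lower as well, and Ttr at 1.71 was higher.

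Of the dehydrogenase genes tested, Rdh16 at -0.74 and Rdh11 at -0.37 were lower, and Adh1 at 0.72, Rdh13 at 0.51 and Rdh5 at 0.40 were higher. Of 11 genes tested in that dehydrogenase list, 2 were lower, 3 higher and 6 not called. Aldh1a1, Aldh1a7 and Rdh10 were lower, 3 of the 4 genes tested besides Cyp26b1, and Aldh1a1 and Aldh1a7 are near copies. Of the genes listed as known targets, Rarres2 at -1.21, Tgm2 at -1.11, Cd38 at -0.73 and Hoxa5 at -0.32 were lower. Nrip1, which the receptor list also holds, was a target gene with a higher level. These differences are given beside the shares of all genes called above, 32.3% higher and 32% lower.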

How the data were processed

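RNA was measured in 12 libraries. Per the submitters' processing notes, STAR, DRAGEN, DESeq2 and build mm10 were used, with no versions or roles given. Each deposited table holds raw counts per gene, whose smallest row sum is 12 in kidney and 10 in F4/80+, and also the log2 fold change of the authors, their p-value and adjusted p-value, the mean signal of scaled counts, the fold ratio and score columns (SE and Wald statistic), per the file headers. The authors' kidney log2 values were Arg/Arg over Trp/Trp by their sign against the counts and were turned. Counts were fitted in R 4.3.3 with edgeR 4.0.16 (glmQLFit, TMM, filterByExpr with a minimum count of 10 and a minimum total of 15, Benjamini-Hochberg over all genes tested, threshold 0.05) and limma 3.58.1, with DESeq2 1.42.0 as an alternative. Genotypes were fitted per table, and sample types over the 13733 nuclear protein-coding genes that the tables share. The SE is the absolute log2 fold change over the square root of F, so it restates the test. In the text it is given only for values that were tested. Log2 CPM used a prior count of 2. The scripts were tested on simulated data, and plots used Python 3.11.15 and matplotlib 3.10.9. Lengths, the merged span of all annotated exons of a gene, came from GENCODE M21. It held 15356 of 15361 kidney and 18124 of 18145 F4/80+ identifiers. Annotated spans matched the files' mm10 coordinates for all 8 genes.

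The genes and lists were chosen with earlier results of these data known. The named genes were the 8 genes, up to 6 passing pathway genes of smallest p per list or else the 3 of smallest p, the 6 largest pathway changes in F4/80+ libraries, and the 5 genes most like Cyp26b1. Alternatives were size factors of the DESeq2 kind, DESeq2, no filter, a replicate block, nuclear genes only, total count scaling, separate genotypes and leaving out each library. Intervals cover counting error only. Some genes of the lists are not reported here.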

Additional observations from a re-analysis of the deposited data

How the results depend on the processing

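For the kidney comparison, 106 of 110 values under alternatives kept their direction and their side of the threshold, and 4 changed sign. The 106 include counts of genes called, which stayed at 0. Without Arg/Arg kidney replicate 1 the log2 fold change of Aldh1a1 was -0.0496, without Arg/Arg kidney replicate 3 that of Cyp26b1 was 0.45, without Trp/Trp kidney replicate 2 that of Cyp26b1 was 0.02, and without Trp/Trp kidney replicate 1 that of Rbp4 was -0.16. Each rests on fewer samples. With 1 kidney left out, the ranges were -0.0496 to 0.416 for Aldh1a1, -0.686 to 0.45 for Cyp26b1 and -0.16 to 1.205 for Rbp4. In the F4/80+ comparison, which has no test, leaving out 1 library gave -2.73 to -1.92 for Cyp26b1, -0.424 to 0.372 for Aldh1a1, whose sign changed without Arg/Arg replicate 3, -0.545 to -0.0199 for Aldh1a7, -0.528 to -0.196 for Rdh10 and -0.354 to -0.107 for Dhrs3. Each of the 55 values under alternatives moved by less than 1 SD of the replicates. That limit is too wide to show stability, since leaving out 1 library can hardly exceed it and the sign change of Aldh1a1 fell within it. By sample type, 129 of 133 values were rated the same. For tested genes this meant the same direction and side of the threshold, and for counts of genes called a similar number. For Cyp26b1, which was not tested, it meant only a shift of less than 1 SD of the replicates. Pathway genes called numbered 22 over both genotypes, 22 within Trp/Trp libraries and 13 within Arg/Arg libraries, and the cause was not tested. Within Arg/Arg libraries Rdh10 was at -0.25 and Dhrs3 at 0.0441. With total count scaling Dhrs3 was at -0.27 and passed. Leaving out 1 library gave 17 to 23 pathway genes called. Of the 5 genes most like Cyp26b1, 4 were shared with the list at a mean of at least 1 CPM.

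Whether replicate numbers pair the samples is not stated in the labels. Deviations of same-numbered genotypes correlated at -0.11, -0.034 and -0.0196 in kidney and at -0.329, -0.525 and 0.185 in F4/80+ preparations. Those of differently numbered F4/80+ genotypes correlated at -0.15 to 0.526, and such correlations over 3 libraries per group cannot decide on pairing. With the replicate number as a block, 0 of 8 genes were called in kidney, 3 of 4 by sample type, and Cyp26b1 was at -2.58 between F4/80+ genotypes. Cyp26b1 had its fewest counts in Trp/Trp F4/80+ replicate 3, with 4 among 7.62 M nuclear protein-coding counts. Arg/Arg F4/80+ replicate 1 had 108 among 6.88 M.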

Other observations

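The likeness of genes to Cyp26b1 over the 6 kidneys was computed after the F4/80+ values were seen. Among 10891 genes, Tmem221, Amotl2, Txnl4a and Exoc8 had the highest Pearson's r, at 0.9867, 0.9832, 0.9827 and 0.9787. In the 6 F4/80+ libraries their r with Cyp26b1 was -0.28, -0.30, 0.06 and -0.19. These are the highest of many correlations over few libraries and are given as a description.

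Cyp26c1, the remaining gene of the CYP26 family, was counted in F4/80+ libraries from 2 to 8 counts, at 0.179 to 1.05 CPM, and had no row in the kidney table used here.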
